A study of Mus musculus with 14 samples.

Results

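The albumin family of mouse liver and a pair of repressors of its fetal member were followed through postnatal development. The members were albumin (Alb), alpha-fetoprotein (Afp), afamin (Afm), the vitamin D-binding protein (Gc) and the repressors Zbtb20 and Zhx2, which are 6 of 19751 genes that could be named on the arrays. They were chosen by gene symbol, through the RefSeq accession of each probe. Liver RNA came from untreated CD-1 mice of both sexes killed at 3 wk, 4 wk or 8 wk of age, which gives the 6 groups M3, M4, M8, F3, F4 and F8 (M, male; F, female; the number is the age in wk). Each group was represented by 2 pools of liver RNA, from 5 mice per pool at 3 wk and 6 mice per pool at 4 wk and 8 wk, so that mouse to mouse variation within a pool was not measured. The sexes were compared at each age (M3/F3, M4/F4 and M8/F8), and 8 wk liver was compared with 3 wk and 4 wk liver in females (F8/F3, F8/F4) and in males (M8/M3, M8/M4). These 7 comparisons had 2 two-color arrays each, one per pair of pools and with the dyes exchanged. All ratios below are log2 ratios of the first over the second group. They compare RNA amounts in whole liver, in which fewer cells of a type and less RNA per cell cannot be told apart.

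Alb, Afp, Afm and Gc encode related plasma proteins that hepatocytes secrete. Albumin is the main protein of adult plasma and carries fatty acids, hormones and drugs. Alpha-fetoprotein is its fetal counterpart and is silenced in liver after birth. Afamin binds vitamin E, and the Gc protein carries vitamin D and scavenges actin. Zbtb20 is a zinc finger protein that represses the Afp promoter in postnatal liver, and Zhx2 is a zinc finger and homeobox protein whose loss in BALB/cJ mice leaves Afp expressed in the adult.

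In the mouse genome Alb, Afp and Afm are neighbors on chromosome 5, with 0 annotated protein-coding genes between Alb and Afp and 0 between Afp and Afm, and 4 such genes lie between Gc and Alb. The 150 bases before the RefSeq start of the 4 family genes (build GRCm38.p6) are shown because these genes share a locus but differed in their course below. Capitals mark TATAAA, the letters of a TATA box at which transcription starts are positioned, which were picked after the sequences had been seen and were searched on both strands. The strand is that of the gene, and the Gc window is chr5:89457899-89458048 (minus strand), the Alb window chr5:90460720-90460869 (plus strand), the Afp window chr5:90490564-90490713 (plus strand) and the Afm window chr5:90518799-90518948 (plus strand).
Gc: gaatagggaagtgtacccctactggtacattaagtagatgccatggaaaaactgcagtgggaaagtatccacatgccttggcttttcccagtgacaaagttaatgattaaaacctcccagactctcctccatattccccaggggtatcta
Alb: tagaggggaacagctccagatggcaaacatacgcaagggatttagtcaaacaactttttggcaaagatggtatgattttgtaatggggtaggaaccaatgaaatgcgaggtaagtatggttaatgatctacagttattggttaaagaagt
Afp: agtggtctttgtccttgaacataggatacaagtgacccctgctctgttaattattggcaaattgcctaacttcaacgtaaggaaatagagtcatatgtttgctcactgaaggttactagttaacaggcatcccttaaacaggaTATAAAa
Afm: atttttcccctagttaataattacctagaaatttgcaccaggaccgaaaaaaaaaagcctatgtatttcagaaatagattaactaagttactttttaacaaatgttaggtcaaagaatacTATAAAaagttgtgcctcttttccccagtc
Over 250 bases before the start, 12.4% of the 32851 windows of annotated mouse promoters held a match. Over the same 250 bases, of which 150 are printed, Afp and Afm had 1 match each, on the gene's own strand, which began 7 bases before the annotated start in Afp and 30 bases before it in Afm. Gc, Alb and Zbtb20 had 0 matches, and Zhx2 had no entry in the promoter table used. A match is a string of letters, and binding was not measured here.

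The 6 genes had 7 probes, 2 of them for Gc and 1 for each other gene, and all 7 were well above background in both channels of all 14 arrays. Over whole arrays, 57.8% to 77.2% of spots in red and 55.2% to 69.6% in green were well above background. The Afp probe was spotted 10 times per array. A gene was called where the adjusted p from limma was under 0.05 and the groups differed by more than 1.5-fold. Of the 6 genes, 4 were called in at least 1 comparison (Alb, Afp, Afm and Zbtb20), with 5 calls down and 1 call up over 42 tests, beside 7.59% of the tests of all probes above background in the 7 comparisons. Without the ratio threshold, 14 of the 42 tests passed, beside 21.5% of all. By the adjusted p alone 0 of 6 members passed in M3/F3 and M4/F4 (3.18% and 7.2% of all probes), and 4 in M8/F8 (20.5%). With age, 2 passed in the female comparison with 4 wk (18.8%) and 2 in that with 3 wk (30.7%), and in males 3 passed against 4 wk (27%) and 3 against 3 wk (38.9%).

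Between the sexes the members did not differ at 3 wk or 4 wk by the test. In M3/F3 and in M4/F4 0 of 6 genes were called, where 0.464% and 1.44% of all probes were. At 8 wk, the 4 genes that passed the adjusted p had ratios short of the threshold (Alb and Afm lower in male liver, Zbtb20 and Zhx2 higher), so that 0 were called, beside 6.31% of all probes. The age comparisons held the calls. In male liver 3 of 6 genes were called in M8/M3 (Alb and Afm down, Zbtb20 up), where 16.8% of all probes were, and 2 of 6 in M8/M4 (Alb and Afm down), beside 10.1% of all probes. In female liver 1 of 6 was called in F8/F3 (Afp down), beside 10.8% of all probes, and 0 of 6 in F8/F4, beside 5.41%.

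**Figure D1:**
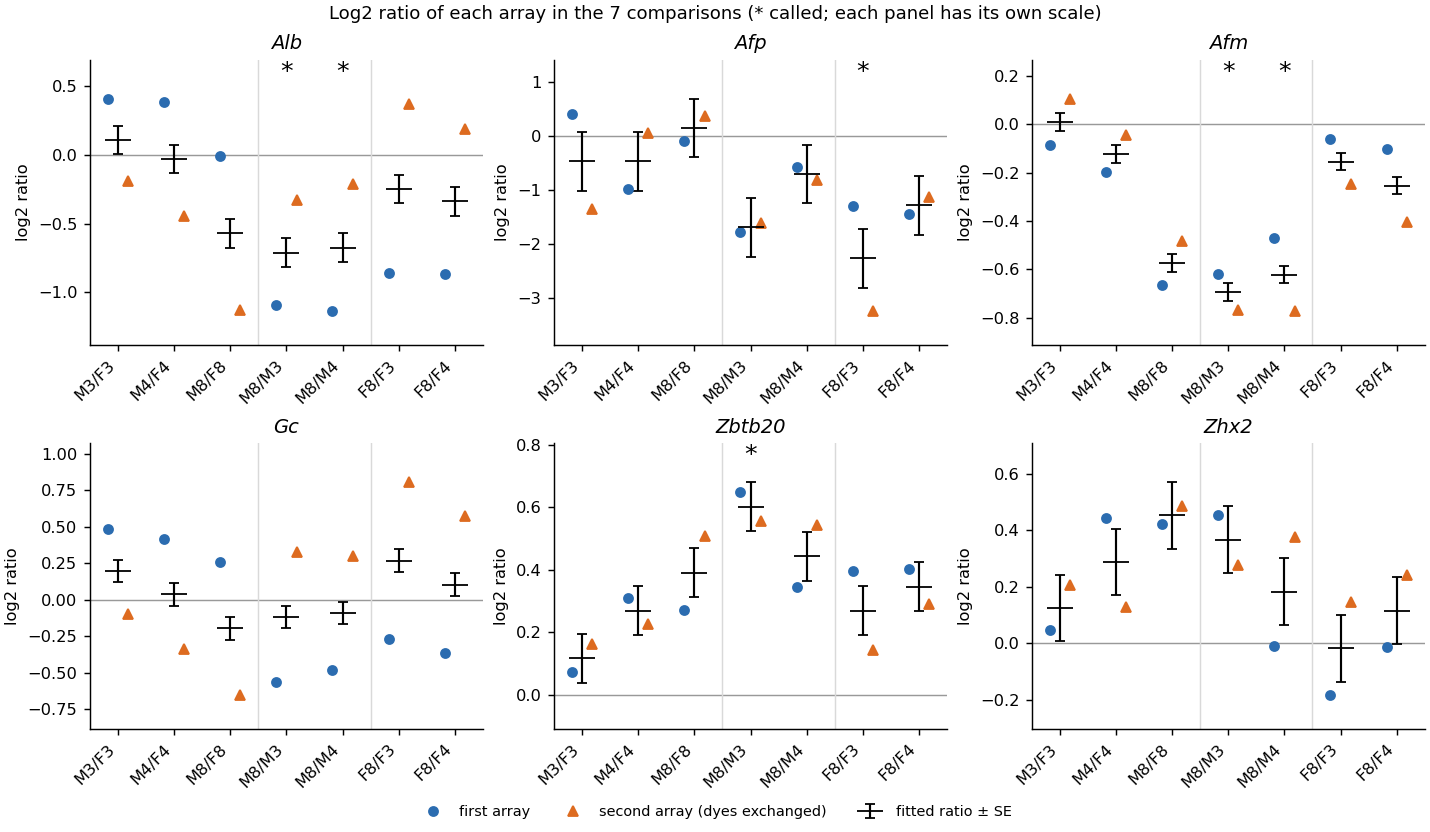
Log2 ratios of the 6 members (main probe of each) in the 7 comparisons, with the first array as circles, the second array as triangles, and the fitted ratio with its standard error as a bar; stars mark calls. The 8 Afp age arrays all lie below 0, the Alb and Gc arrays split by dye orientation, and the Zbtb20 points lie above 0 in every comparison.

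Afp, the fetal member, was lower at 8 wk than at 3 wk and 4 wk on all 8 age arrays, in both sexes. In female liver the F8/F3 ratios were -1.29 and -3.24, and Afp fell by 2.26 on the log2 scale (SE 0.54, n = 2 arrays; adjusted p from limma 0.0353), a 4.79-fold difference. The F8/F4 ratios were -1.44 and -1.12, with a fitted ratio of -1.28 (adjusted p from limma 0.188). In male liver the M8/M3 ratios were -1.77 and -1.60, with a fitted ratio of -1.69 (adjusted p from limma 0.0933), and the M8/M4 ratios were -0.58 and -0.82, with a fitted ratio of -0.70 (adjusted p from limma 0.522). All 8 arrays had the same direction, while only F8/F3 passed the test. Leaving out a single array ended that call in 11 of 14 cases. In 10 of them the ratio stayed at -2.26 and the adjusted p was 0.055 to 0.0681, and without the second F8/F3 array the ratio was -1.24 (adjusted p 0.32). Without the first F8/F3 array it was -3.28 and still called (adjusted p 0.0304). The fitted decline was not shown to differ between the sexes, since M8/M3 minus F8/F3 was 0.57 (SE 0.77; adjusted p from limma 0.817), but -0.44 without the second and 1.59 without the first F8/F3 array.

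The residual SD of Afp over the arrays was 0.82, higher than in 98.7% of the probes above background in at least 1 comparison. The 10 spots on 1 array, which share a hybridization, had an SD of 0.03 to 0.09 (median 0.05). Afp was rather dim, with spot medians as low as 1.38 times the local background (median 1.90 in the dimmer channel). The second 3 wk female pool stood apart on both arrays that carried it. On the second M3/F3 array its processed Afp intensity was 963 against 379 for the male pool, and on the second F8/F3 array it was 1797 against 191 for the 8 wk pool. For the first 3 wk female pool the same pairs were 262 against 346 and 309 against 127. No array compared pools of different numbers. With all ratios of a number combined and the dye term taken out, the 3 wk female pool lay above the 8 wk female pool of the same number by 1.39 for the first pools and by 3.15 for the second.

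The Afp tests that passed depended on the arrays fitted. Without the 2 arrays of that pool, an alternative chosen after seeing the data, F8/F3 was -1.41 (adjusted p from limma 0.0921) and no longer passed, whereas M8/M3 at -1.69 (adjusted p 0.0241) and F8/F4 at -1.28 (adjusted p 0.0457) did. M8/M3 also passed without the first M3/F3 array (adjusted p from limma 0.0433) and without the second (0.0431), with an SE of 0.39 in both. Leaving out either takes the disagreement between these 2 arrays out of the residual. This does not test M8/M3 apart from that pool, which the second array carries. M8/M3 passed too when 6 group means were fitted in place of 7 comparisons (adjusted p 0.0157). With an added term for the replicate number, F8/F3 also missed the threshold, at an adjusted p of 0.0514. With the shared pools in the covariance it kept its call (adjusted p from limma 0.0295). For other genes of fetal liver, the median over the 7 listed genes that were above background throughout was 0.05 on the first and -0.15 on the second M3/F3 array, and -1.82 and -2.14 on the F8/F3 arrays. For 5 proliferation genes, the F8/F3 medians were -3.06 and -3.35. The part of these lists in the Afp result was not tested.

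**Figure D2:**
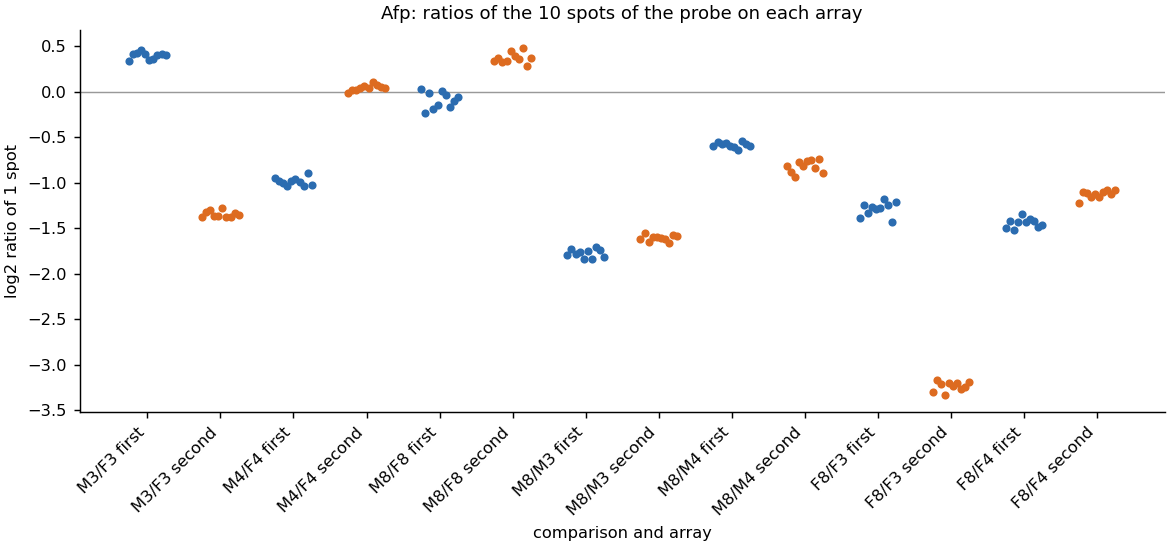
Log2 ratio of each of the 10 Afp spots on the 14 arrays, first arrays in blue and second arrays in orange. The spots of 1 array lie close together (SD of 0.03 to 0.09), while the F8/F3 arrays lie apart, at -1.29 and -3.24.

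No array compared 3 wk with 4 wk, so that step was taken through the shared 8 wk pools. Afp was -0.99 in M4/M3 (SE 0.77; adjusted p from limma 0.694) and -0.98 in F4/F3 (adjusted p 0.765), which the spread between arrays does not tell from 0. The female value rested on single arrays, since it was -2.0 without the first F8/F3 array, 0.04 without the second and -0.13 without the second 3 wk female pool. In both contrasts 0 of 6 members were called, beside 0.228% of all probes in M4/M3 and 0.0897% in F4/F3.

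Afm, the vitamin E carrier, had the smallest residual SD among the members, and it was lower at 8 wk, more so in male liver. The M8/M3 ratios were -0.62 and -0.77 and the M8/M4 ratios were -0.47 and -0.77. Afm fell by 0.69 from 3 wk to 8 wk (SE 0.04; adjusted p from limma 0.000164) and by 0.62 from 4 wk to 8 wk (adjusted p 0.000218) in male liver, that is 1.62-fold and 1.54-fold. Without the second M8/M4 array the latter was -0.57, short of the ratio threshold. In female liver the F8/F3 ratios were -0.06 and -0.25, and the F8/F4 ratios were -0.10 and -0.41. The female decreases were smaller but passed the adjusted p, at -0.15 (adjusted p 0.0333) and -0.25 (adjusted p 0.00507), short of the ratio threshold. The F8/F3 value passed in 14 of the 29 alternatives with an adjusted p, and the F8/F4 value in 24. Both counts include alternatives that repeat the p of the main fit. These are median centring, the deposited series matrix and changes of only the filter or the ratio threshold.

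The difference between the sexes in Afm was tested directly. M8/M3 minus F8/F3 was -0.54 (SE 0.05; adjusted p from limma 0.00444) and M8/M4 minus F8/F4 was -0.37 (adjusted p 0.0267), both short of the ratio threshold, so that 0 of 6 members were called in either interaction (3.22% and 1.34% of all probes). Without the second 3 wk female pool the adjusted p of the first was 0.0639. At 8 wk the male pools had less Afm than the female pools on both arrays, with ratios of -0.66 and -0.48. The fitted M8/F8 ratio of -0.57 (adjusted p from limma 0.000275) is 1.49-fold, just under the threshold, and without the first M8/F8 array it was -0.59 and past it. At 3 wk the arrays were -0.09 and 0.11, on both sides of 0, and at 4 wk they were -0.20 and -0.05 (adjusted p 0.0741).

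Alb was also lower in male liver at 8 wk in the fit, but its arrays depended on the dye. The M8/M3 ratios were -1.10 and -0.33, the M8/M4 ratios -1.14 and -0.21 and the M8/F8 ratios -0.01 and -1.13. Every male age array was below 0, whereas the F8/F3 ratios of -0.86 and 0.37 and the F8/F4 ratios of -0.87 and 0.19 had opposite signs. With 1 dye term per probe, Alb fell by 0.71 in M8/M3 (SE 0.10; adjusted p from limma 0.00553), and by 0.68 in M8/M4 (adjusted p 0.0068). M8/F8 was -0.57 (adjusted p 0.013), short of the ratio threshold. F8/F3 was -0.25 (adjusted p 0.188) and F8/F4 was -0.34 (adjusted p 0.0826). The difference between the sexes did not pass, with M8/M3 minus F8/F3 at -0.47 (SE 0.15; adjusted p from limma 0.151).

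The dye term of Alb was 0.47, larger in size than that of 98.8% of the probes above background in at least 1 comparison. The red spot median reached the saturation value given in the scan header on 4 of the 14 arrays and was 76.4% to 100% of it on all, while the green median was 13.3% to 33.0% of it. The software flagged 0 of these spots as saturated. On those 4 arrays (second M8/F8, first M8/M3, first M8/M4 and first F8/F3) red held F8, M3, M4 and F3, the group with the higher fitted level, and a red signal at the limit is only a lower bound. Without a dye term the Alb ratios stayed at -0.71 and -0.68, but their SE rose from 0.10 to 0.45 and the calls were lost, with an adjusted p of 0.449 in M8/M3 and 0.485 in M8/M4. With the slide as a block the ratios also stayed and the SE was 0.43 (adjusted p 0.418 and 0.453). Without the 4 arrays at the limit, chosen after seeing the data, Alb was -0.75 in M8/M3 (adjusted p 0.202) and -0.63 in M8/M4 (adjusted p 0.235), but 0 of all probes were called in any comparison of that smaller fit, so that its p-values say nothing about the members. Alb also missed a call in M8/M3 without the second M8/M3 array (-0.61; adjusted p 0.0635) and in M8/M4 without the first (-0.68; adjusted p 0.056) or the second M8/M4 array (-0.67; adjusted p 0.0593). With normexp and loess M8/M4 was -0.57 (adjusted p 0.0135), short of the ratio threshold. Without the first M8/F8 array Alb was called in M8/F8, at -0.68. That ratio ranged from -0.68 to -0.46 when single arrays were left out. Over all alternatives its adjusted p from limma went as high as 0.591, so the pass at 8 wk did not hold throughout. The dye term of Afm, for comparison, was -0.11.

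**Figure D3:**
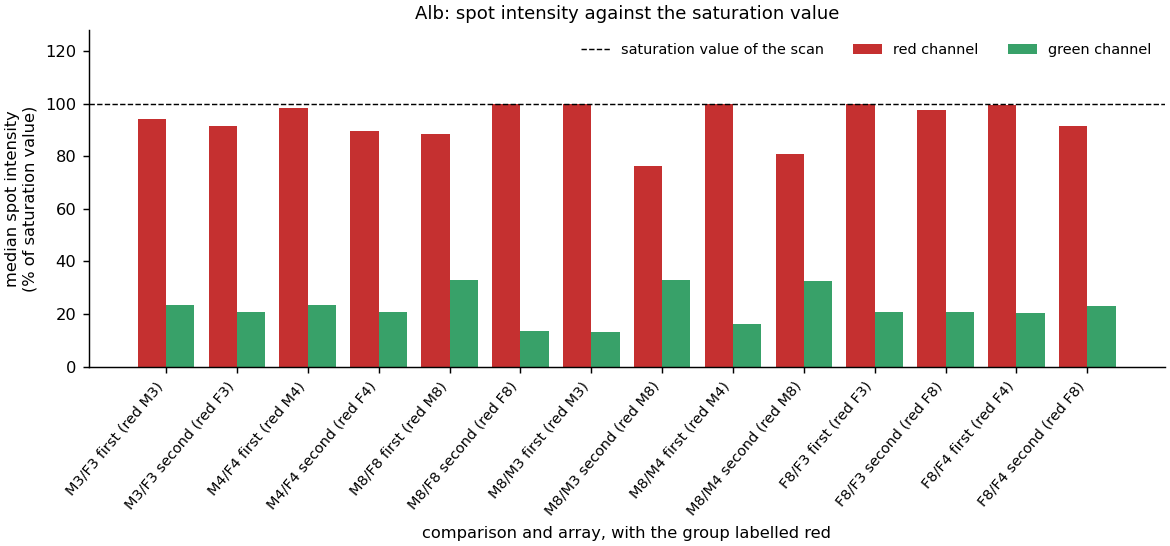
Median intensity of the Alb spot in the red and the green channel of each array, as a percentage of the saturation value of that scan (dashed line), with the group that was labelled red named under each pair of bars. The red bars reach the line on 4 arrays and lie at 76.4% or more on the others, and the green bars lie between 13.3% and 33.0%.

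Gc, the remaining family member, was called in none of the 7 comparisons. Its main probe (A_55_P2022158) had the same dependence on the dye as Alb, with a dye term of 0.42 and M8/M3 ratios of -0.56 and 0.33. The fitted ratios were between -0.20 (M8/F8; adjusted p from limma 0.157) and 0.27 (F8/F3; adjusted p 0.0642). The second probe (A_51_P349961), whose dye term was 0.15, gave -0.39 in M8/F8 (SE 0.08; adjusted p from limma 0.0171) and 0.28 in F8/F3 (adjusted p 0.0533). On this probe Gc was lower in male than in female liver at 8 wk by 1.31-fold, which the main probe gave as 1.15-fold. The direction in both comparisons was the same for both probes.

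Zbtb20, which represses Afp, had ratios above 0 on all 14 arrays, which share pools. The adjusted p passed in M8/M3, M8/M4, F8/F4 and M8/F8, and not in M3/F3, M4/F4 or F8/F3. The M8/M3 ratios were 0.65 and 0.56, and Zbtb20 rose by 0.60 on the log2 scale (SE 0.08; adjusted p from limma 0.00358), or 1.52-fold, just over the threshold. It rose by 0.44 in M8/M4 (arrays 0.34 and 0.54, adjusted p 0.0116). This ranged from 0.29 to 0.60 when single arrays were left out, and was called at 0.60, without the first M8/M4 array. In F8/F4 Zbtb20 rose by 0.35 (arrays 0.40 and 0.29, adjusted p 0.0295). F8/F3 was 0.27 (arrays 0.40 and 0.14; adjusted p 0.0702).

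The sex ratio of Zbtb20 was 0.07 and 0.16 on the M3/F3 arrays, 0.31 and 0.23 on the M4/F4 arrays and 0.27 and 0.51 on the M8/F8 arrays. The fitted ratio was 0.12 at 3 wk (adjusted p from limma 0.44), 0.27 at 4 wk (adjusted p 0.0702) and 0.39 at 8 wk (adjusted p 0.0188), and passed at 8 wk. The rise was not shown to differ between the sexes, with M8/M3 minus F8/F3 at 0.33 (SE 0.11; adjusted p from limma 0.171). The dye term of Zbtb20 was -0.04.

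Zhx2 was dim, with spot medians as low as 1.2 times the local background and processed intensities of 32.2 to 68.5. It was above 0 on all 6 sex arrays. The M8/F8 ratios were 0.42 and 0.49, with a fitted ratio of 0.45 (SE 0.12; adjusted p from limma 0.0471), short of the ratio threshold. With normexp background correction and loess of the median signals the same ratio was 0.23 (adjusted p 0.0661), and which of these changes moved it was not tested. The M8/F8 ratio passed in 8 of the 29 alternatives with an adjusted p, most of which repeat the p of the main fit. Among changed fits it passed with 6 group means (adjusted p from limma 0.00373) and with dim probes left out beforehand (0.0284). With the shared pools in the covariance the adjusted p was 0.166, and without a dye term it was 0.0605. M8/M3 was 0.37 (arrays 0.46 and 0.28; adjusted p 0.0934), and F8/F3 was -0.02, with arrays of -0.18 and 0.15 on both sides of 0.

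The 7 ratios of each replicate number were resolved into relative levels of the 6 groups, on a log2 scale around their mean and after the probe's dye term was taken out, a step chosen after seeing the data. The mean is that of each replicate number, so that a first and a second pool are set side by side only as distances from their own mean. For Afp the order was F3 (0.47 and 1.97), M3 (0.97 and 0.54), F4 (0.63 and -0.17), M4 (-0.24 and -0.22), M8 (-0.91 and -0.94) and F8 (-0.92 and -1.19). Its pools overlapped between F3, M3 and F4 and between M8 and F8, while the 8 wk pools of both sexes lay below all younger pools. For Afm the order was F4, M3, F3, M4, F8 and M8, with the younger groups between 0.08 and 0.22 on average, F8 at -0.01 and M8 at -0.56. The Afm pools of M8 lay below those of F8, and those of F8 below all younger pools. For Alb the resolved means were -0.57 in M8, -0.09 in F8 and 0.12 to 0.21 in the younger groups, but red signals at the limit for F8, M3, M4 and F3 entered them, so that no order of the Alb groups is read from them. With the dye term left in, the means were the same, but the Alb pools of M8 and F8 overlapped, and so did the Afm pools of F8 and M4.

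Zbtb20 was highest in M8 (0.43 and 0.52), followed by F8, M4, M3, F3 and F4, and the M8 pools lay above the others. Zhx2 was also highest in M8 (0.29 and 0.37), followed by M4, M3, F8, F3 and F4. Below M8, the neighbors in this order overlapped except F3 and F4 for Zhx2. The relative levels spanned 4.82-fold for Afp (F3 over F8, and 2.61-fold from the first pool of each alone), 1.72-fold for Alb (whose red signal was at the limit on 4 arrays, so that its true span may be larger), 1.72-fold for Afm, 1.66-fold for Zbtb20, 1.44-fold for Zhx2 and 1.2-fold for the main probe of Gc.

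**Figure D4:**
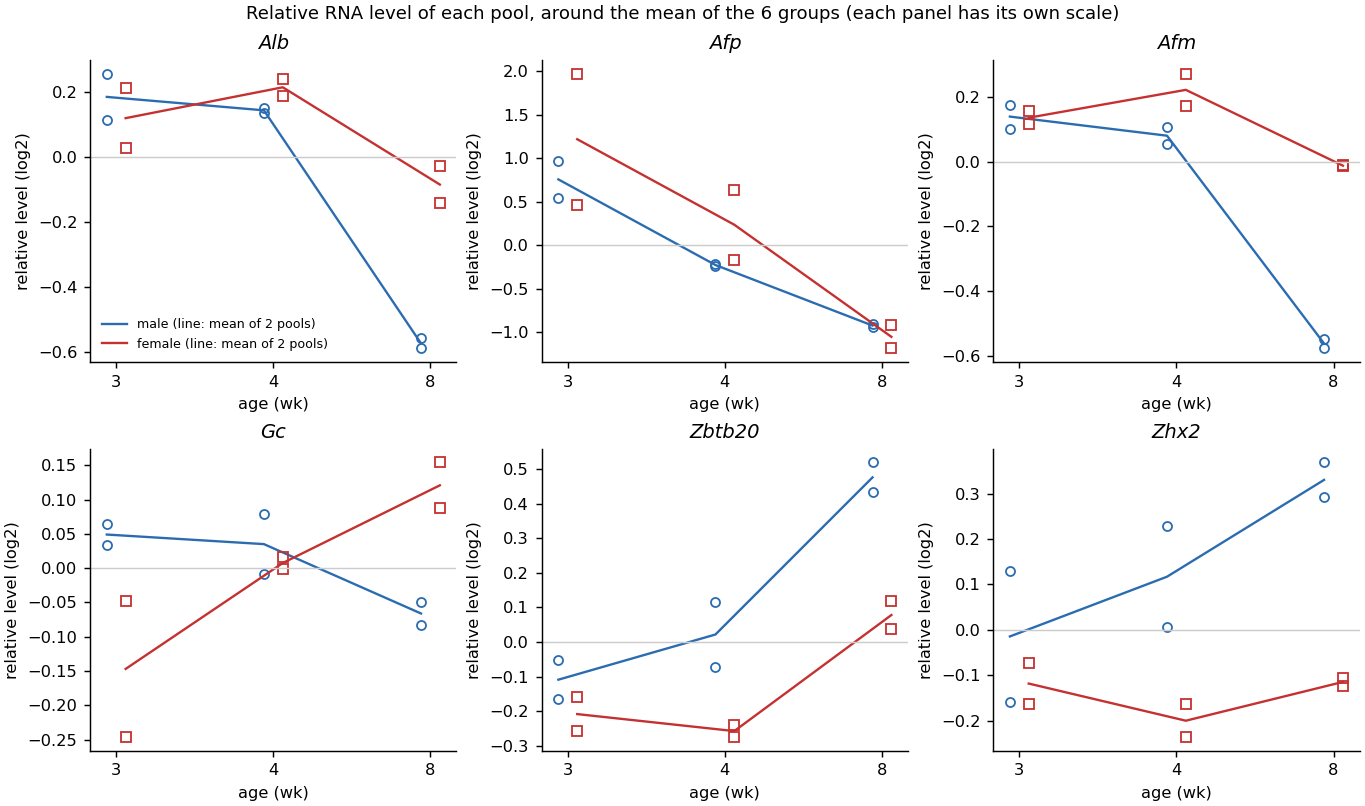
Relative level (log2, around the mean of the 6 groups) of each member in each pool against age (evenly spaced, not to scale), with male pools as circles, female pools as squares and lines through the mean of 2 pools; the probe's dye term was taken out. Afm has its lowest point in M8, Afp is lowest at 8 wk in both sexes, and Zbtb20 and Zhx2 have their highest point in M8; the Alb points include red signals at the limit on 4 arrays.

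The regulators and relatives of the members were read from lists of known genes. Of 11 activators of the Afp and albumin promoters, 2 were called up in each male age comparison and 1 in each female one, and 0 were called down in these, beside 16.8% of all probes above background called in either direction in M8/M3 and 10.8% in F8/F3. The list had a median ratio of 0.16 in M8/M3, and of 0.04 in F8/F3, against 0.02 over all probes above background in both. Dbp, a clock-controlled activator of the albumin promoter, rose by 2.75 in M8/M3 and by 2.98 in F8/F3. Cebpb, which binds the same promoters, rose by 1.12 in M8/M3 and was 0.41 in F8/F3. It was the 1 listed activator called between the sexes, lower in male liver in M3/F3 (-0.60; adjusted p from limma 0.0463), where 0.464% of all probes were called.

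Among 4 relatives of the repressors, Zbtb16 was lower in M4/F4 (-1.11; adjusted p from limma 0.0399) and in F8/F4 (-1.21; adjusted p 0.0297). Bcl6, a repressor of the same class as Zbtb20, had sex ratios of 0.81, 0.28 and 0.77 at 3 wk, 4 wk and 8 wk and was called in 0 comparisons. Zhx3, a relative of Zhx2, rose by 0.51 in M8/M3 (adjusted p from limma 0.00795) and by 0.40 in M8/M4 (adjusted p 0.0207), short of the ratio threshold, and was 0.31 in M8/F8 (adjusted p 0.0499). Zhx1 rose by 0.29 in M8/M3 (adjusted p 0.0196) and by 0.26 in F8/F3 (adjusted p 0.0273).

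Other genes that liver silences after birth were mostly lower at 8 wk, as Afp was. Of 12 such genes, 11 were named on the arrays and 9 were above background in M8/M3 and F8/F3. In M8/M3 8 of 9 were called down (median -1.99) and in F8/F3 6 of 9 (median -1.45), against a median of 0.02 over all probes above background, of which 16.8% and 10.8% were called in either direction. Gpc3, a surface proteoglycan of fetal liver, had ratios of -3.27 in M8/M3 and -2.81 in F8/F3. Igf2bp3, a fetal RNA-binding protein, had ratios of -3.42 and -2.25, and Lpl, which clears lipoproteins in newborn liver, of -1.99 and -2.95, all of them calls. Mest and Cd24a also fell in all 4 age comparisons. Afp was called in F8/F3, and no difference between Afp and the list was tested.

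Of 13 other hepatocyte plasma proteins 2 were called down in M8/M3 and 1 in each other age comparison and in M8/F8, beside 16.8% of all probes above background in M8/M3 and 6.31% in M8/F8, with medians between -0.18 and -0.04 in the 4 age comparisons. Ahsg, the fetuin-A gene, fell by 1.25 in M8/M3 and by 0.70 in F8/F3, and was lower in male than in female liver at 8 wk (-0.79; adjusted p from limma 0.000842). Trf, which encodes transferrin, fell by 0.64 in M8/M3. Of 8 partners that handle the ligands, 5 were above background in M8/M3, where 1 was called up and 1 down, beside 16.8% of all probes. Cyp27a1, a vitamin D 25-hydroxylase, rose by 0.64 in M8/M3 and by 0.70 in M8/M4. In female liver it rose by 0.45 in F8/F3 (adjusted p from limma 0.0135) and by 0.39 in F8/F4 (0.0220), short of the ratio threshold. Lrp2, the receptor that takes up the Gc protein, fell by 0.72 in M8/M3. Fcgrt, the receptor that spares albumin from breakdown, was called in 0 comparisons, but was lower in male liver at 8 wk (-0.26; adjusted p from limma 0.0118) and rose by 0.21 in F8/F3 (adjusted p 0.0285).

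**Figure D5:**
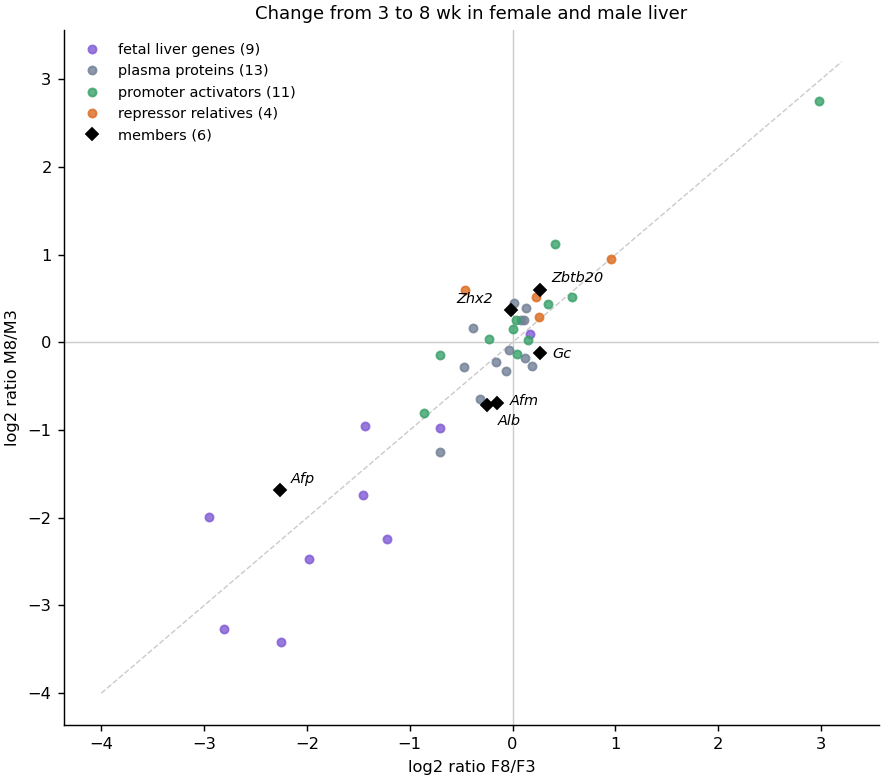
Fitted log2 ratio of M8/M3 against that of F8/F3 for the 6 members (diamonds, named) and for the listed fetal liver, plasma protein, activator and repressor-related genes above background in both, with equality as a dashed line. Afp lies among the fetal liver genes at the lower left, and Alb and Afm lie together below the line, at -0.71 and -0.69 in male and -0.25 and -0.15 in female liver. Both Alb values include a red signal at the limit, on the first M8/M3 and the first F8/F3 array.

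The cell types of the liver were checked with marker genes. All 6 hepatocyte markers were above background in every comparison, with 1 up and 1 down in M8/M3 (16.8% of all probes were called) and a median of -0.03. All 5 proliferation genes were called down in each of the 4 age comparisons (medians of -3.79 in M8/M3 and -3.16 in F8/F3), 4 of 5 erythroid genes were down in each, with 1 up in each male comparison, and 3 of 5 Kupffer cell genes were down in M8/F8 (median -0.59), where 6.31% of all probes were called, and 1 in each male age comparison. Of 5 bile duct and progenitor genes 2 were down in M8/M3 and 1 in each other age comparison, and 1 was up in M4/F4. Of 4 endothelial genes 1 was down in each age comparison but F8/F4, and of 4 stellate genes 2 were down in M8/M3. These lists moved with age or sex as some members did, and their part in the members' results was not tested.

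For each called member the 3 genes with the nearest ratios over the 14 arrays were sought among 22920 named probes above background on every array. Nearest to Afm were Qpct (root mean square difference 0.10, r = 0.95), Olfr801 (0.10, r = 0.96) and Stc1 (0.10, r = 0.96). Nearest to Zbtb20 were Cat, the catalase gene (0.07, r = 0.92), Stard13 (0.09, r = 0.91) and Lap3 (0.10, r = 0.87). Alb was nearest to Trf (0.24, r = 0.94), C3 (0.32, r = 0.87) and Ptger4 (0.33, r = 0.86), and Afp to Mboat2 (0.48, r = 0.88), Pcdh17 (0.54, r = 0.85) and Ptn (0.58, r = 0.85). The 14 arrays share pools and dye orientations, so that r describes these arrays and was not tested.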

How the data were processed

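Liver RNA pools of CD-1 mice were amplified, labeled with Alexa dyes and hybridized in pairs to 14 Agilent mouse arrays of 39429 probes. The deposited scanner files give spot and background intensity as pixel medians, a processed intensity, background-subtracted and dye-normalized (linear and LOWESS) by the authors with Feature Extraction, and the log10 ratio of red over green with its modeled error, a deposited score used in 1 alternative. The scanner files and the series matrix, both deposited, held identical log10 ratios. Ratios were converted to log2, turned by the dye in the labels, and averaged over the spots of a probe. Ddx3y and Xist had the sign of the labels on all 6 sex arrays, whereas the example of dye assignment in the study's methods is the other way round. Depth is not defined for arrays. Their number limits the precision.

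Genes were named through RefSeq accessions (26055 of 39429 probes), and promoters were taken from RefSeq (GRCm38.p6). The probe of a gene was the one with the highest mean signal. limma 3.58.1 in R 4.3.3 with data.table was fitted to all 14 arrays with a coefficient for each comparison and 1 dye term per probe, with 6 residual degrees of freedom, and Benjamini-Hochberg adjustment covered every probe in the 7 comparisons jointly, or every probe within an interaction or 3 to 4 wk contrast. A call needed an adjusted p below 0.05, a difference of more than 1.5-fold, and at least 1 of both groups well above background on both arrays. The main fit took the 14 arrays as independent, although they share 12 pools. In 1 alternative the shared pools entered the covariance, with an estimated pool to array variance ratio of 4.17. The study used the Rosetta error model, which was not run. Tables and figures were made with Python, pandas, numpy and matplotlib. The fit was tested on simulated data.

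The labels number the pools, and the numbers pair the arrays: the difference between replicates taken through the sex comparisons and through the age comparisons correlated across 21650 probes (r = 0.882 for the 3 wk and 0.878 for the 4 wk groups). Arrays lay on 4 slides scanned on 2 days, with the 3 sex comparisons and M8/M3 on the first day and the other age comparisons on the second, so that day and comparison cannot be told apart except through these loops. Resolved by both routes, the ratios of the main probes differed by at most 0.28 in size. Because the files used hold no mean signals, the normexp alternative (offset 50, then loess) used the median signals. The members and gene lists were chosen with earlier results of these data known. The genes named are all members, up to 5 genes a list (those called most often) and the 3 nearest patterns of each called member. Fcgrt lies outside that rule and was named after its values were seen.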

Additional observations from a re-analysis of the deposited data

Results flagged for a closer look

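The age effect on Afm differed between the sexes by the test of the difference itself. M8/M3 minus F8/F3 was -0.54 and M8/M4 minus F8/F4 was -0.37, which means a larger decline in male than in female liver. The first had an adjusted p from limma below 0.05 in 25 of 29 alternatives that gave one. The second did in 17 of 29, and both counts include alternatives that repeat the p of the main fit. With the shared pools in the covariance the adjusted p of the first was 0.0182. The first stayed at -0.54 without a dye term (SE 0.15 against 0.05; adjusted p 0.128) and with the slide as a block (SE 0.14; adjusted p 0.109). It was -0.53 (adjusted p 0.0639) without the second 3 wk female pool and -0.52 (adjusted p 0.221) without the 4 arrays with the Alb red signal at the limit, a fit that called 0 of all probes. The cause was not tested.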

How the results depend on the processing

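Directions of the Afp age ratios below were kept in all alternatives run. The number of member genes called was 4, 3 to 4 when a single array was left out, and 0 without the 4 arrays at the red limit, where 10 arrays remained, 0 of all probes were called in any comparison, and Afm in M8/M3 was -0.66 (adjusted p from limma 0.12). Afp in M8/M3 (-1.69) was called when 6 group means were fitted in place of 7 comparisons (-1.68) and with the error-weighted average (-1.69). It was also called without the second 3 wk female pool (-1.69), and ranged from -1.91 to -1.47 when single arrays were left out. With normexp and loess M8/M3 was -1.17 (adjusted p from limma 0.144) and F8/F3 was -2.01 (0.0184). M8/M3 was called when either M3/F3 array was left out, which takes the disagreement between these arrays out of the residual. Afp in M8/M4 and F8/F4 was called by the error-weighted average (-0.70 and -1.27), and F8/F4 also without that pool (-1.28), with ranges of -0.72 to -0.68 and -1.59 to -0.98. Afp in F8/F3 lost its call with a term for the replicate number (-2.26), without that pool (-1.41) and without the arrays at the red limit (-3.41). Its range was -3.28 to -1.24. The number of members with an interaction was 0, but 1 (Afm) with normexp and 1 (Afm) without the ratio threshold. From 3 to 4 wk 0 members were called, but 1 (Afp, M4/M3) by the error-weighted average, at an unadjusted p below 0.0001 from the deposited errors, which leave out the spread between arrays. The Afp level of F3 minus F8 was 2.27, 2.26 to 2.30 when single arrays were left out, 1.93 with normexp and 1.39 from the first 3 wk female pool alone. The replicate term changed no other member's call, but it shifts all ratios of a number alike and does not model the shared pools. With the shared pools in the covariance 4 members were called, with Afp in F8/F3 at an adjusted p from limma of 0.0295. In that fit the adjusted p was 0.0792 for Afp in M8/M3 and 0.166 for Zhx2 in M8/F8. Zbtb20 in M8/M3 kept its call in 28 of 30 alternatives, some of which repeat the main fit, and was 0.58 with 6 group means. Where no cause is given here, the cause was not tested. Signal near background limits Zhx2 and also Afp, whose spot medians were as low as 1.38 times the local background. Signal near the detector limit affects Alb.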
